A study of Mus musculus with 13 samples.

Results

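The genes described here are those coding for voltage-gated and potassium ion channels in mouse brain. They were taken by symbol from the 4 deposited group tables: every name that starts with Kcn, Cacna, Cacnb or Cacng, or with Scn or Hcn followed by a digit. The rule found 140 of 23110 gene names present in any table, and 136 of the 21056 present in all 4. Of these 136 genes, 127 of 16940 passed the filter on low counts and entered the tests. The 9 that did not pass were Kcna7, Kcnab3os, Kcne3, Kcnj15, Kcnk15, Kcnk7, Kcnn4, Kcnrg and Kcnv2. Another 4 were listed in the tables of 1 surgery only: Cacng1 and Kcne1 in the sham tables, Kcnk16 and Kcnmb4os1 in the tMCAO tables. The rule also took in RNA genes named after a channel, such as Kcnq1ot1 and Kcnd3os, which code for no channel protein.

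The study measured brain RNA from 13 male mice, each sequenced as 1 library. All carried CX3CR1creER/+ and R26iDTR/+, so that Cre made by cells using the Cx3cr1 promoter (microglia and other mononuclear phagocytes) switches on a receptor for diphtheria toxin. The genotype label spells the receptor locus in more than 1 way between samples, and it was read as 1 genotype. All mice, controls included, were given tamoxifen by mouth at 7 to 8 weeks of age. In the depleted groups (DE), diphtheria toxin at 50 ng per g followed 30 days later, on 3 days, and the control groups (CON) received saline. Transient occlusion of the right middle cerebral artery (tMCAO) lasted 60 min and was made with a filament, and the other mice had sham surgery. The surgery protocol gives an age of 6 to 8 weeks, which does not match the tamoxifen schedule. Sham surgery gave sham_CON with 3 libraries and sham_DE with 4, and occlusion gave tMCAO_CON with 4 and tMCAO_DE with 2. The title of tMCAO_CON replicate 4 names occlusion while its treatment label names sham surgery, and it was grouped by its title. The labels used here name neither the brain part taken nor the time after occlusion.

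Voltage-gated sodium channels carry the upstroke of the neuronal action potential, voltage-gated calcium channels couple depolarisation to transmitter release and to signalling in the cell, and potassium channels repolarise the membrane and set its resting level. Each pore-forming subunit works with auxiliary subunits that set its surface level, gating or position: KChIP proteins for the Kv4 channels of the A-type current, beta and alpha2delta subunits for calcium channels, and Scn beta subunits for sodium channels. Ischaemia removes the ATP that keeps ion gradients, neurons depolarise and take up calcium, and channels are therefore studied both as parts of injury and as drug targets in stroke.

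The libraries held 16240416 to 22081167 counts over all genes. Levels are given as CPM, the counts scaled to library size, and a change as a log2 fold change with its standard error (SE) and the p adjusted over all 16940 genes by the Benjamini-Hochberg method, from edgeR's quasi-likelihood test over the 4 groups. A gene is called, or said to have risen or fallen, where that adjusted p is under 0.05. Summed CPM of 9 microglial markers was 269.6 to 284.6 in sham_CON and 26.6 to 57.8 in sham_DE, and 271.9 to 352.7 in tMCAO_CON and 32.6 to 35.7 in tMCAO_DE. Summed CPM of 10 pan-neuronal markers was 9013 to 9530 in sham_CON, 7824 to 9234 in sham_DE, 7528 to 8178 in tMCAO_CON and 7020 to 7264 in tMCAO_DE, with no marker at 0 in any group. Of 5 neutrophil markers, the sum reached 26.4 in sham_CON and 26.9 in sham_DE, each in 1 library (sham_CON replicate 2 and sham_DE replicate 3), and counts without both libraries are given with the depletion results. In such bulk tissue, fewer cells of a type and less RNA per cell cannot be told apart.

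In sham_CON, auxiliary subunits were among the most abundant channel genes. Per length, on the deposited FPKM scale, Cacng7, a calcium channel gamma family member, had a mean of 87.8 with libraries between 85.8 and 89.7, and Cacnb3, a calcium channel beta subunit, had a mean of 85.1 with libraries between 81.7 and 88.6. The 2 genes overlapped each other. Kcnh3 (50.9), Kcnj4 (49.6) and Kcnab2 (48.9), of the ELK, inward rectifier and Kv beta classes, lay lower and overlapped over the 3 libraries. Of 136 genes, 50 had a mean of at least 10 FPKM, 45 lay between 1 and 10, and 41 lay under 1. The classes therefore mixed abundant and near-silent members: the Nav pore class held Scn2a1, Scn1a and Scn8a, the brain sodium channels, and also Scn11a, better known from pain-sensing neurons, at 0.0197 FPKM. The gene lengths behind the authors' FPKM were long for some genes, 11.9 kb for Kcnab2 against 2.16 kb for Kcnj4, and the order between genes rests on those lengths.

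**Figure D1:**
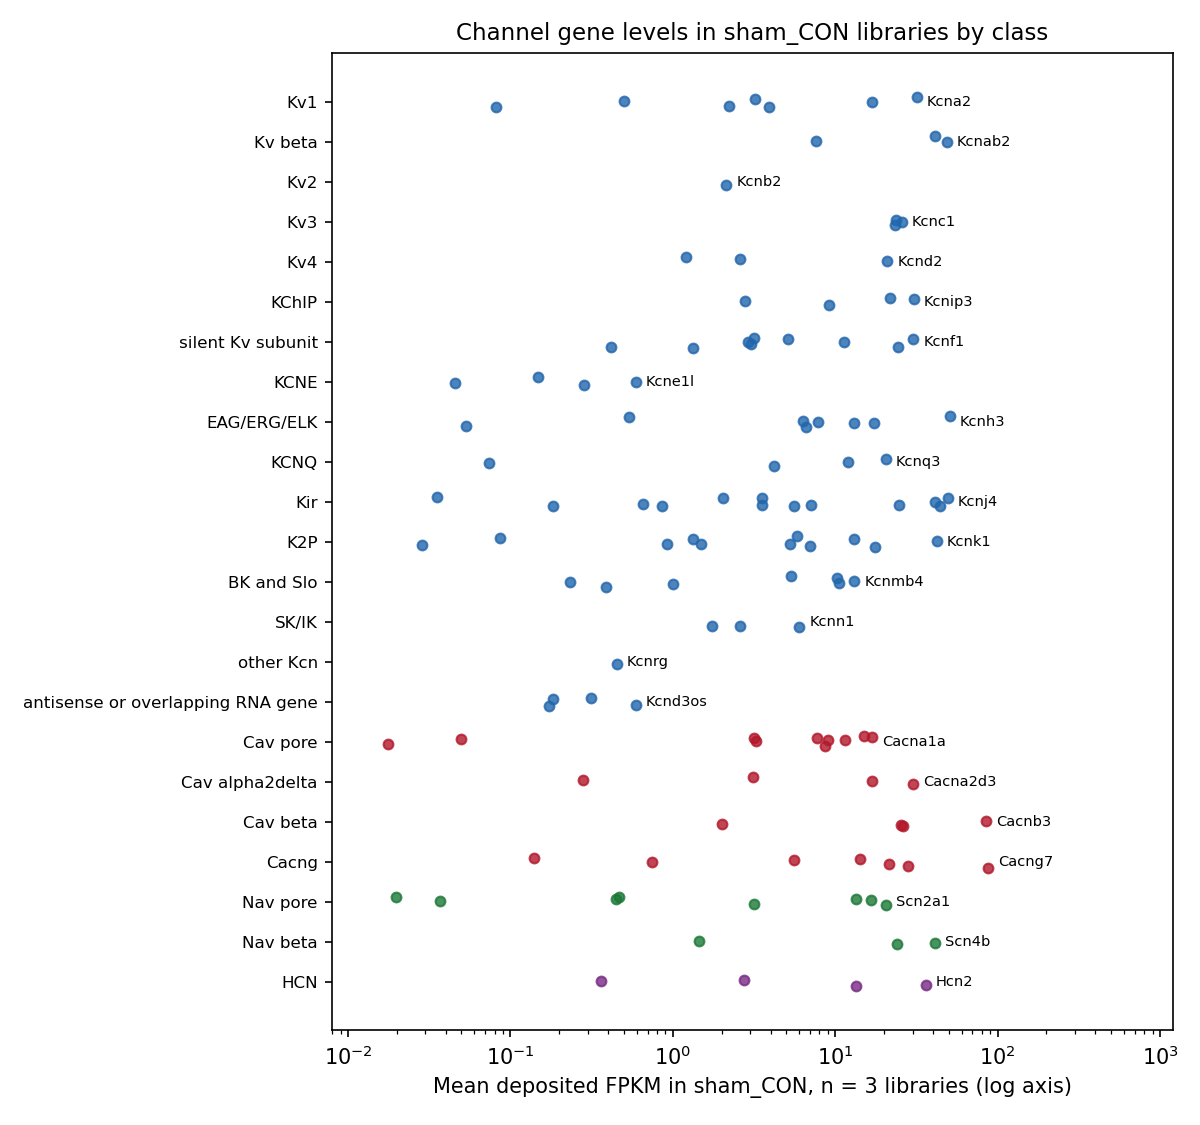
Mean deposited FPKM in sham_CON (n = 3 libraries, log axis) for 125 of the 136 channel genes, one row per class, blue for potassium channel classes, red for calcium channel classes, green for sodium channel classes and purple for HCN. The gene named is the highest drawn in its class, and 6 genes under 0.01 FPKM are among those not drawn. Cacng7 and Cacnb3 lie furthest to the right, at 87.8 and 85.1, and most classes span more than an order of magnitude.

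Occlusion with microglia present lowered more channel genes than it raised. Between tMCAO_CON and sham_CON, 13 of 127 channel genes were called, 11 lower and 2 higher. Over all genes tested, 8.44% were called, 3.31% lower and 5.14% higher, against 8.66% lower and 1.57% higher of the channel genes. The median log2 fold change was -0.15 over the channel genes and 0.02 over all genes, and 87 of 127 (68.5%) lay below 0, against 47.3% of all genes. In 28 channel genes all 4 tMCAO_CON libraries lay below all 3 sham_CON libraries, and in 6 all lay above; over all genes these shares were 10.5% and 13.1%. The neuronal markers moved in the same direction: 2 of 10 fell (Snap25 and Syt1, synaptic vesicle fusion genes), none rose, and their median log2 fold change was -0.15. The part of neuronal RNA in the channel result was not tested.

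Of the called genes, Kcnip2 fell most. Kcnip2, which codes for KChIP2, an auxiliary subunit that brings Kv4 channels to the surface, had 114.2, 137.1 and 129.1 CPM in sham_CON and 76.8, 71.3, 89.3 and 72.6 CPM in tMCAO_CON. Every occluded library lay below every sham library, and the log2 fold change was -0.71 ± 0.09 (edgeR adjusted p = 0.000413). Kcnd2, the Kv4.2 pore subunit that KChIP2 binds, had 110.6, 111.2 and 114.0 CPM in sham_CON and 88.7, 89.3, 83.9 and 99.7 CPM in tMCAO_CON, again with no overlap (-0.31 ± 0.08, edgeR adjusted p = 0.0273). Kcnip2 lies at chr19:45791839-45816061 and Kcnd2 at chr6:21215503-21729805 (mm10, GENCODE M21), both protein coding. The 250 bases before the RefSeq start of each gene (GRCm38.p6) are shown because this pair of partners moved together, 5′ to 3′ on the gene's strand, with capitals marking GC boxes (GGGCGG on either strand). They span chr19:45816064-45816313 on the minus strand and chr6:21215096-21215345 on the plus strand.
Kcnip2: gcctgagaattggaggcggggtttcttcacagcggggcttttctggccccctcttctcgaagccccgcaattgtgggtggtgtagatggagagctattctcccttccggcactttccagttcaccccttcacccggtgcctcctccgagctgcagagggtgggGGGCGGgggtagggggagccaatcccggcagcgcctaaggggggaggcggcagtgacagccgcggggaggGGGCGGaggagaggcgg
Kcnd2: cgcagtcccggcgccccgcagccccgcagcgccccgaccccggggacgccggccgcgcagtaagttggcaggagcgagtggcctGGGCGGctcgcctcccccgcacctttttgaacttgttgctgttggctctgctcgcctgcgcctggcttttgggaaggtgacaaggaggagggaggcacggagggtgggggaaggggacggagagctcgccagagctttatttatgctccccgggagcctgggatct
Kcnip2 has GC boxes that begin 87 and 17 bases before the start, and Kcnd2 has one further upstream. The RefSeq start of Kcnd2 lies upstream of the GENCODE gene start. A GC box was found in 49 of the 101 channel gene windows matched by symbol (48.5%) and in 32.9% of all 27025 windows. The median GC content was 60.0% over the channel gene windows and 52.0% over all.

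Other potassium channel pores that fell were Kcnc1, Kcnh3 and Kcnk3. Kcnc1 codes for Kv3.1, which repolarises fast-firing interneurons, and had 264.9, 297.9 and 324.9 CPM in sham_CON against 235.4, 218.0, 224.6 and 231.9 CPM in tMCAO_CON (-0.38 ± 0.08, edgeR adjusted p = 0.00922). Kcnh3, an ELK channel of forebrain neurons, had 184.1, 190.4 and 192.6 CPM in sham_CON against 142.3, 121.0, 138.6 and 154.0 CPM in tMCAO_CON (-0.44 ± 0.09, edgeR adjusted p = 0.0133). Neither gene's groups overlapped. Kcnk3, the TASK-1 background channel, went from 31.9, 33.6 and 28.3 CPM to 24.8, 24.4, 22.5 and 20.2 CPM, also without overlap (-0.45 ± 0.10, edgeR adjusted p = 0.0165). All 4 Kv3 genes had a log2 fold change below 0, of which Kcnc1 passed the test. No member of the Kv1 class (7 tested), the KCNQ class (5), the SK class (3) or the Kv beta class (3) was called, and their median log2 fold changes were -0.10, -0.25, -0.25 and -0.13.

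Among the calcium channel genes, 3 of the 4 beta subunits fell, which bring the pores to the membrane. Cacnb1 had 174.6, 148.8 and 173.7 CPM in sham_CON and 122.6, 123.5, 118.8 and 136.5 CPM in tMCAO_CON (-0.40 ± 0.08, edgeR adjusted p = 0.00817). Cacnb3 (-0.38 ± 0.09, edgeR adjusted p = 0.0154) and Cacnb4 (-0.34 ± 0.07, edgeR adjusted p = 0.0112) fell by similar amounts, and in all 3 genes every occluded library lay below every sham library. Cacnb2 did not pass the test, at 43.0, 56.8 and 55.9 CPM against 49.7, 64.5, 50.9 and 59.9 CPM (0.12 ± 0.14, edgeR adjusted p = 0.673). Of the 10 pore subunits, Cacna1i, the Cav3.3 T-type channel of burst-firing neurons, fell from 168.6, 189.0 and 191.2 CPM to 132.5, 139.7, 124.6 and 138.9 CPM (-0.45 ± 0.07, edgeR adjusted p = 0.00237). Cacna1e, the R-type pore, fell as well (-0.30 ± 0.07, edgeR adjusted p = 0.0261), as did the alpha2delta subunit Cacna2d3 (-0.40 ± 0.11, edgeR adjusted p = 0.0446). The P/Q-type pore Cacna1a, the main release channel of central synapses, did not pass, with a log2 fold change of -0.28 ± 0.08 (edgeR adjusted p = 0.0562).

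The 2 channel genes that rose were of low abundance. Cacng5, which codes for a gamma family protein that also acts as an auxiliary subunit of AMPA receptors, had 5.47, 5.09 and 5.25 CPM in sham_CON and 9.44, 13.2, 15.4 and 10.9 CPM in tMCAO_CON (1.21 ± 0.20, edgeR adjusted p = 0.00291). Kcnj8, the Kir6.1 pore of ATP-sensitive channels that is best known in pericytes and smooth muscle, had 3.76, 4.31 and 3.56 CPM in sham_CON and 5.63, 6.14, 6.59 and 5.58 CPM in tMCAO_CON (0.63 ± 0.15, edgeR adjusted p = 0.024). The groups did not overlap in either gene. Beside Kcnj8, 2 of 7 mural markers rose (Acta2 and Tagln, of the smooth muscle contractile apparatus), none fell, none was at 0, and their summed CPM was 242.3 to 249.2 in sham_CON and 223.9 to 281.7 in tMCAO_CON; the part of mural cells in the rise of Kcnj8 was not tested. Cacng5 lies at chr11:107874605-107915055 on the minus strand, and the 250 bases before its start (chr11:107915056-107915305) are shown as the promoter of the channel gene with the largest rise among those called, with GC boxes and an AP-1 motif (TGANTCA, either strand) in capitals.
Cacng5: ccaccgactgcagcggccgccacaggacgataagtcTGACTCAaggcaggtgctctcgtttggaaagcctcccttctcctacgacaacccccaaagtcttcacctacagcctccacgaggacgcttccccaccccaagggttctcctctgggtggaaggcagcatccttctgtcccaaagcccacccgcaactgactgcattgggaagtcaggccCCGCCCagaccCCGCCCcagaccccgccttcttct
The AP-1 motif begins 214 bases before the start, and the GC boxes, on the opposite strand, begin 35 and 24 bases before it. The AP-1 motif was found in 4 of 101 channel gene windows (3.96%) and in 6.87% of all windows.

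None of the 10 sodium channel pores, 4 sodium channel beta subunits or 4 HCN genes was called between tMCAO_CON and sham_CON. Their median log2 fold changes were -0.12, -0.19 and -0.14. Scn1a, the main sodium channel of inhibitory interneurons, ranged from 243.9 to 410.8 CPM over the sham libraries and from 144.9 to 304.9 CPM over the occluded ones, and the groups overlapped (-0.70 ± 0.26, edgeR adjusted p = 0.117). Hcn2, a pacemaker channel of thalamus and cortex, had 165.5, 155.9 and 165.1 CPM in sham_CON and 129.7, 132.5, 137.7 and 136.1 CPM in tMCAO_CON (-0.28 ± 0.09, edgeR adjusted p = 0.0799). Its groups did not overlap, although the test was not passed.

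The calls of Kcnip2, Cacna1i, Cacnb1 and Cacng5 held in each of the 20 alternatives run, the highest adjusted p being 0.0483, for Cacnb1. The call of Cacna2d3 was lost in 12 of them, that of Kcnd2 in 9 and that of Cacna1e in 8. Each of the remaining calls was lost in 1 to 4. The counts varied with single libraries: 4 genes fell without sham_CON replicate 3, 17 without tMCAO_CON replicate 1 and 20 without sham_DE replicate 1, and 1 rose without sham_CON replicate 1, sham_CON replicate 3 or tMCAO_CON replicate 3. Without tMCAO_CON replicate 4, whose labels disagree, 14 fell and 2 rose.

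**Figure D2:**
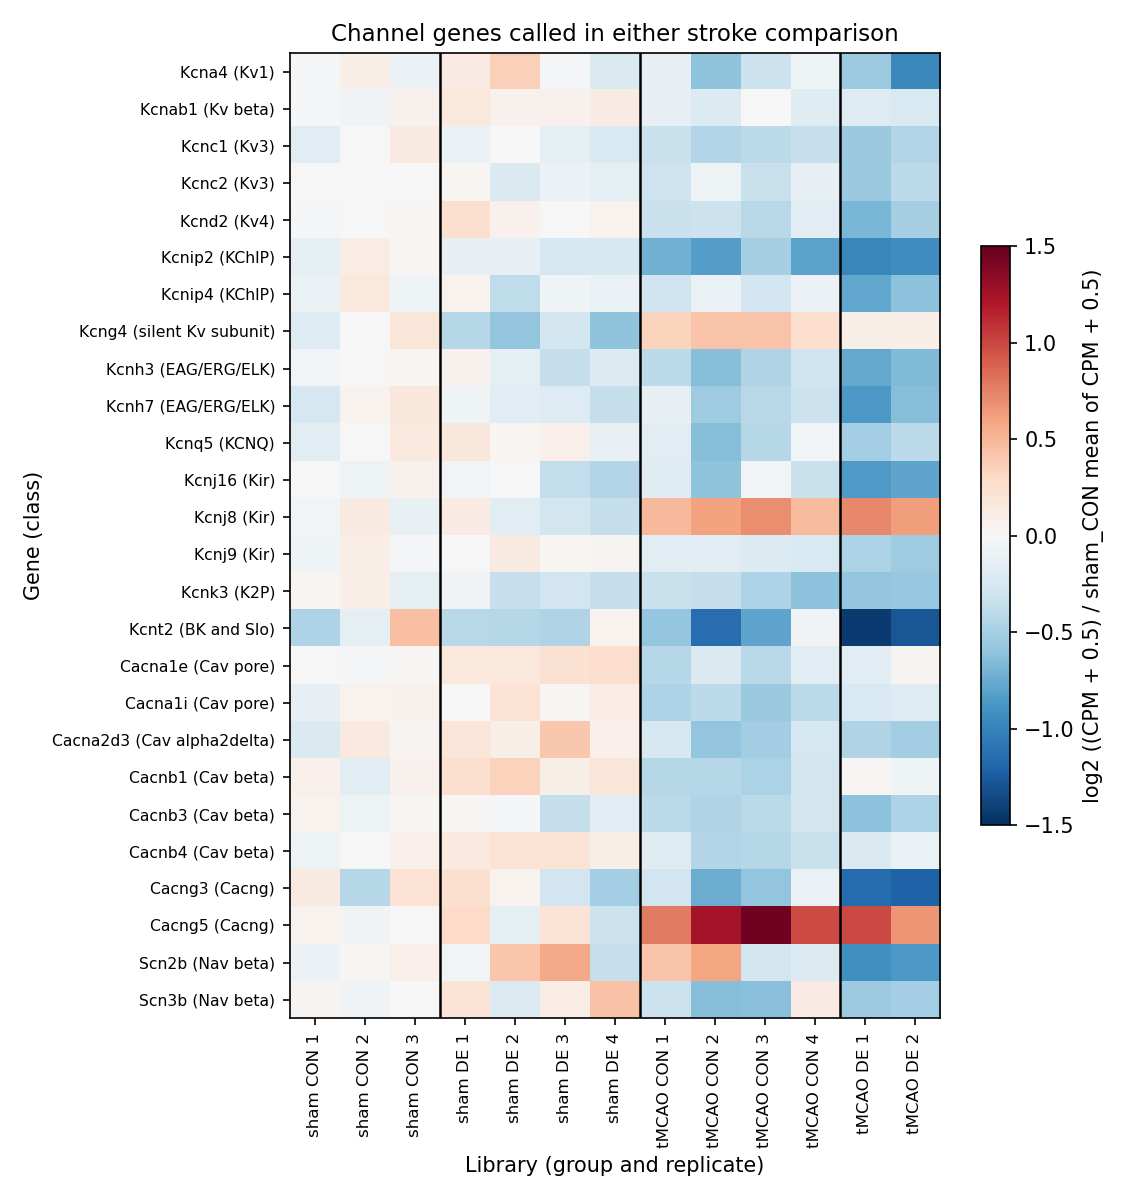
Colour gives log2 of (CPM + 0.5) over the sham_CON mean of CPM + 0.5, from -1.5 (blue) to 1.5 (red), for the 26 channel genes called in either comparison of occluded with sham brain; columns are the 13 libraries and rows are genes by class. The occluded columns are blue for most rows and red for Cacng5 and Kcnj8. Kcng4 is above the sham_CON level in tMCAO_CON and close to it in tMCAO_DE. The tMCAO_DE columns are the darkest for Kcnip2, Kcnt2 and Cacng3.

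After depletion, occlusion again lowered more channel genes than it raised. Between tMCAO_DE and sham_DE, 23 of 127 were called, 20 lower (15.7%; over all genes, 5.84%) and 3 higher (2.36%; over all genes, 6.59%), where 12.4% of all genes were called. The median log2 fold change was -0.12, against 0.00 over all genes (-0.001 before rounding), and 66.1% of channel genes lay below 0, against 50.1% of all genes. Both tMCAO_DE libraries lay below all 4 sham_DE libraries in 39 channel genes and above them in 13 (over all genes, 17.7% and 19.5%). Of the 10 neuronal markers, 2 fell (Snap25 and Syt1), none rose, and the median was -0.28; their part in the channel result was not tested.

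Some genes of the Kv4 complex fell in this comparison too. Of the 4 KChIP genes 2 had a log2 fold change below 0, as did 2 of the 3 Kv4 pores. Kcnd2 had 132.7, 117.0, 111.5 and 115.8 CPM in sham_DE and 69.7 and 78.9 CPM in tMCAO_DE (-0.68 ± 0.09, edgeR adjusted p = 0.000936). Kcnip2 had 116.0, 116.0, 106.5 and 107.6 CPM in sham_DE and 64.1 and 66.5 CPM in tMCAO_DE (-0.77 ± 0.10, edgeR adjusted p = 0.000852). Kcnip4, another KChIP, fell from 81.3, 59.6, 74.7 and 73.0 CPM to 45.3 and 50.8 CPM (-0.59 ± 0.12, edgeR adjusted p = 0.0102). The groups did not overlap in Kcnd2, Kcnip2 or Kcnip4. Kcnip3 was not called, at 167.9, 299.9, 233.6 and 246.8 CPM in sham_DE and 296.5 and 286.3 CPM in tMCAO_DE. Kcnd3, the Kv4.3 pore, did not pass the test, and its sham_DE group held 1 library far from the others, at 16.9, 14.2, 13.04 and 76.5 CPM against 15.3 and 14.7 CPM in tMCAO_DE.

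Among inward rectifiers, Kcnj9, the GIRK3 subunit of G protein-gated channels, had 303.9, 334.4, 311.4 and 313.9 CPM in sham_DE and 218.6 and 210.0 CPM in tMCAO_DE (-0.56 ± 0.07, edgeR adjusted p = 0.000431). Its exons overlap those of the opposite-strand gene Gm36937, and whether the counting used strand is not given in the sources used here. Kcnj16, a Kir5.1 subunit found in glia as a partner of Kir4.1, fell from 29.4, 30.2, 23.2 and 22.2 CPM to 16.6 and 17.2 CPM (-0.64 ± 0.16, edgeR adjusted p = 0.0223). Its astrocyte partner Kcnj10 did not pass, with a log2 fold change of -0.11 ± 0.20 (edgeR adjusted p = 0.776). Of 7 astrocyte markers 1 rose (Gfap), none fell, and their summed CPM was 2004 to 4582 in sham_DE and 2608 to 4168 in tMCAO_DE, with none at 0; their part in the fall of Kcnj16 was not tested. Kcnj8 rose from 4.27, 3.41, 3.11 and 2.91 CPM to 6.68 and 6.23 CPM (0.91 ± 0.17, edgeR adjusted p = 0.00521). None of the 7 mural markers was called here, and their summed CPM was 196.5 to 270.8 in sham_DE and 171.8 to 208.0 in tMCAO_DE.

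Of the remaining potassium channel genes, Kcna4 (Kv1.4), Kcnab1 (a Kv beta subunit), Kcnc1, Kcnc2, Kcnh3, Kcnh7, Kcnt2 (a sodium-activated Slo channel) and Kcnq5 fell, with log2 fold changes from -0.31 for Kcnab1 to -1.09 for Kcnt2. Kcnt2 was high in 1 sham_DE library (35.0, 34.7, 34.1 and 48.4 CPM against 16.9 and 18.9 CPM in tMCAO_DE), and without that library, replicate 4, its edgeR adjusted p went from 0.0317 to 0.0589, with 0.191 the highest over the 20 alternatives. Kcnq5 is outside the naming rule and was named after its values were seen. Kcng4, a silent subunit that modifies Kv2 channels, rose from 11.2, 10, 12.6 and 9.92 CPM to 16.3 and 16.4 CPM (0.58 ± 0.12, edgeR adjusted p = 0.0109). Its 2 occluded libraries lay above all 4 sham_DE libraries and within the range of sham_CON (13.25, 15.25 and 17.34 CPM). Kcng4 was itself lower in sham_DE than in sham_CON (log2 fold change -0.49).

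Among calcium channel genes, Cacng3 fell from 146.5, 128.2, 101.4 and 86.5 CPM to 55.2 and 53.2 CPM (-1.09 ± 0.24, edgeR adjusted p = 0.0112). Cacng3 codes for a gamma family auxiliary subunit of AMPA receptors in cortex and hippocampus. Cacng5 rose from 6.54, 4.77, 6.16 and 4.10 CPM to 11 and 8.61 CPM (0.86 ± 0.21, edgeR adjusted p = 0.0199). The occluded libraries lay wholly below the sham libraries for Cacng3 and wholly above for Cacng5, so that the gamma family held a fall and a rise. Cacna1i, Cacna2d3, Cacnb3 and Cacnb4 fell, by -0.30, -0.68, -0.41 and -0.32 on the log2 scale.

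In the sodium channel class, 2 of 4 beta subunits fell and none of 10 pores was called. Scn2b, which links to sodium channel pores by a disulphide bond, had 196.3, 270.7, 299.6 and 159.1 CPM in sham_DE and 107.0 and 110.8 CPM in tMCAO_DE (-1.09 ± 0.27, edgeR adjusted p = 0.021). In the microglia-intact groups it had 189.6, 204.4 and 212.4 CPM after sham surgery and 271.7, 305.5, 167.3 and 175.9 CPM after occlusion (0.19 ± 0.23, edgeR adjusted p = 0.676). The tMCAO_DE libraries were the lowest 2 of the 13, and the other groups overlapped. Scn3b fell from 26.6, 19.9, 24.8 and 31.3 CPM to 15.6 and 16.1 CPM (-0.70 ± 0.21, edgeR adjusted p = 0.047). The call of Scn3b was lost in 13 of the 20 alternatives.

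The calls of Kcnip2, Kcnd2 and Kcnj9 held in each of the 20 alternatives. With only 2 libraries in tMCAO_DE, 4 genes fell and 0 rose without tMCAO_DE replicate 1, and 3 fell and 1 rose without replicate 2, when the lone library was assumed to vary like those of the other groups; 5 rose without sham_DE replicate 4 or without tMCAO_CON replicate 2.

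The comparisons of occlusion with and without microglia share no library, although all groups share 1 estimate of the spread. Called in both, and in the same direction, were 10 channel genes, 8 lower (Kcnip2, Kcnd2, Kcnc1, Kcnh3, Cacna1i, Cacnb3, Cacnb4, Cacna2d3) and 2 higher (Cacng5, Kcnj8). They made up 76.9% of the 13 called with microglia present and 43.5% of the 23 called after depletion; over all genes the shares were 49.6% and 33.7%. With microglia present, 12 of the 20 alternatives lost the call of Cacna2d3 and 9 that of Kcnd2. After depletion, 2 lost that of Cacna2d3 and 0 that of Kcnd2. No channel gene was called in opposite directions.

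**Figure D3:**
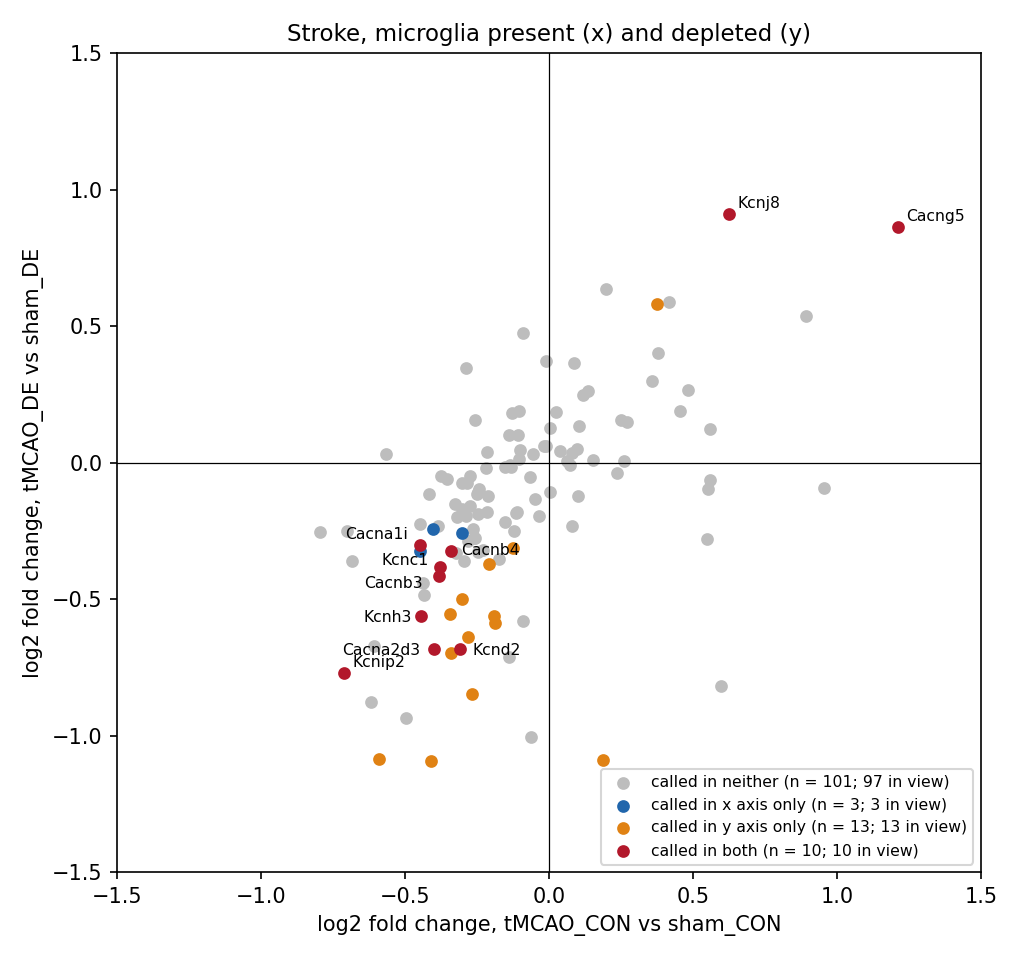
Log2 fold change of occluded over sham brain for the 127 tested channel genes, with microglia present (tMCAO_CON over sham_CON, x axis) and after depletion (tMCAO_DE over sham_DE, y axis). Colours give the comparison in which a gene was called, and 4 genes called in neither lie outside the axes (Kcne2, Kcnj13, Scn11a and Scn4a). The 10 genes called in both lie in the lower left quadrant, except Cacng5 and Kcnj8 in the upper right.

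Whether the response to occlusion differed with depletion was tested directly as the interaction of both factors. No channel gene was called by edgeR, where 0.0472% of all genes were called (0.0059% higher and 0.0413% lower). At an unadjusted p under 0.05 there were 12 of 127 channel genes (9.45%), against 9.72% of all genes. DESeq2 called 2, Kcnj9 (log2 difference -0.37, DESeq2 adjusted p = 0.0186) and Scn2b (-1.27, DESeq2 adjusted p = 0.0335), both with a lower difference between occluded and sham brain in depleted mice, and limma on FPKM called 0. By edgeR the adjusted p was 0.202 for Kcnj9 and 0.283 for Scn2b, and the genes called in only 1 of the occlusion comparisons are not shown to differ between them.

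Depletion without stroke gave no larger share of called channel genes than of all genes, and the calls were mixed. Rises lay in the calcium channel pore, sodium channel pore, Kv1 and KChIP classes. Falls lay in the K2P, Kv1, Kv3 and silent classes and among the RNA genes. Between sham_DE and sham_CON, 12 of 127 channel genes were called, where 11.3% of all genes were. Of these 7 rose (5.51%; over all genes, 6.85%) and 5 fell (3.94%; over all genes, 4.49%). Without sham_CON replicate 2 and sham_DE replicate 3 together, none of the 127 tested rose and 1 fell. The median was -0.01 over channel genes and 0.00 over all genes (-0.005 and -0.004 before rounding). All sham_DE libraries lay above all sham_CON libraries in 10 channel genes and below them in 10 (over all genes, 12% and 10.9%).

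Of the 10 calcium channel pores all had a log2 fold change above 0, with a median of 0.30, and 3 rose. Over all genes 50.5% lay below 0. Cacna1f (2 to 16 counts per library over all groups) and Cacna1s (7 to 21) were near the floor. Cacna1g, the Cav3.1 T-type channel of thalamic and cortical neurons, had 145.7, 105.0 and 122.8 CPM in sham_CON and 188.6, 225.0, 180.9 and 208.8 CPM in sham_DE (0.69 ± 0.13, edgeR adjusted p = 0.00927). Cacna1c, the Cav1.2 L-type pore, had 109.0, 97.3 and 110.1 CPM in sham_CON and 133.4, 153.8, 130.4 and 153.5 CPM in sham_DE (0.44 ± 0.09, edgeR adjusted p = 0.0132). The groups did not overlap in either gene. Cacna1d, the Cav1.3 pore, rose by less (0.20 ± 0.06, edgeR adjusted p = 0.0451), with 85.8, 85.9 and 87.6 CPM against 96.8, 107.0, 96.1 and 96.0 CPM, also without overlap. Its call was lost in 16 of the 20 alternatives.

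Kcnip3, which codes for KChIP3, also known as calsenilin or DREAM, a calcium-binding Kv4 partner and transcriptional repressor, had 153.1, 107.0 and 126.1 CPM in sham_CON and 167.9, 299.9, 233.6 and 246.8 CPM in sham_DE (0.88 ± 0.16, edgeR adjusted p = 0.00745). All sham_DE libraries lay above the sham_CON libraries, replicate 1 by the least. Its Kv4 partners Kcnd2 and Kcnip2 did not pass in this comparison (0.09 ± 0.08 and -0.19 ± 0.09, edgeR adjusted p = 0.465 and 0.172). The gene lies at chr2:127456498-127522094 on the minus strand. The 250 bases before its start (chr2:127522095-127522344) are shown for comparison with the other KChIP gene above, with the AP-1 motif in capitals, 122 bases before the start; no GC box was found in them.
Kcnip3: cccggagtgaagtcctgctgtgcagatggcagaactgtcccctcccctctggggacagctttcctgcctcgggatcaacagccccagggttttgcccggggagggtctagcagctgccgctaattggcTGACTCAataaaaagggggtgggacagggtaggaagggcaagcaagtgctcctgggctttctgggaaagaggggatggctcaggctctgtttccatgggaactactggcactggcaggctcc

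Scn11a and Kcna10 rose from very low levels. Scn11a, the Nav1.9 pore of pain-sensing neurons, had 0, 5 and 1 counts in sham_CON and 1, 80, 36 and 56 counts in sham_DE (4.25 ± 1.07, edgeR adjusted p = 0.0258). Kcna10, a Kv1 channel known from the inner ear and kidney, had 0, 3 and 7 counts in sham_CON and 4, 64, 23 and 66 counts in sham_DE (3.41 ± 0.91, edgeR adjusted p = 0.0312). In both genes sham_DE replicate 1 lay within the range of sham_CON, and the fitted folds rest on few counts.

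Among the genes that fell, Kcnk6, the TWIK-2 background channel known from macrophages and vessels, had 6.65, 5.32 and 7.06 CPM in sham_CON and 2.76, 3.14, 4.27 and 4.16 CPM in sham_DE (-0.83 ± 0.16, edgeR adjusted p = 0.00969). The groups did not overlap. Kcnk13, the THIK-1 channel of mouse microglia, had 5.42, 5.32 and 5.59 CPM in sham_CON and 4.65, 3.68, 3.17 and 4.05 CPM in sham_DE, also without overlap, and did not pass (-0.48 ± 0.15, edgeR adjusted p = 0.0575). All 9 microglial markers fell, with a median of -3.35 and none at 0, and 5 of 7 markers of infiltrating or border myeloid cells rose (summed CPM 5.15 to 6.46 in sham_CON and 22.8 to 31.5 in sham_DE); the part of these cells in the change of Kcnk6 was not tested. Kcna6 (-0.51 ± 0.12, edgeR adjusted p = 0.0202), Kcnc4 (-0.44 ± 0.11, edgeR adjusted p = 0.0254) and Kcng4 (-0.49 ± 0.11, edgeR adjusted p = 0.0187), of the Kv1, Kv3 and silent classes, fell as well. Beside them 3 of 10 neuronal markers fell (Nefl, Nefm and Stmn2), none rose, and the summed CPM was 9013 to 9530 in sham_CON and 7824 to 9234 in sham_DE; their part was not tested. Kcnq1ot1, an RNA transcribed across Kcnq1 on the opposite strand, fell from 15.5, 14.7 and 15.4 CPM to 12.5, 10.2, 10.4 and 9.69 CPM (-0.50 ± 0.13, edgeR adjusted p = 0.0296), and without strand its reads cannot be told from those of Kcnq1.

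Only the call of Kcnk6 held in each of the 20 alternatives. The refits called other totals of channel genes, higher and lower: 0 and 1 without both sham_CON replicate 2 and sham_DE replicate 3, 3 and 2 without sham_CON replicate 1 or sham_DE replicate 2, 3 and 3 without sham_CON replicate 2, 3 and 1 without sham_CON replicate 3 or sham_DE replicate 4, 8 and 3 without sham_DE replicate 3, and 10 and 14 without sham_DE replicate 1.

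In occluded brain, depletion moved as many channel genes up as down. Between tMCAO_DE and tMCAO_CON, 24 of 127 were called, where 18.6% of all genes were. Of these 12 rose (9.45%; over all genes, 9.36%) and 12 fell (9.45%; over all genes, 9.26%). The median was 0.02 over channel genes and -0.01 over all genes. Both tMCAO_DE libraries lay above all 4 tMCAO_CON libraries in 29 channel genes and below them in 27 (over all genes, 22.6% and 22.9%).

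The calcium channel pores lay above 0 in all 10 genes, the low-count Cacna1f and Cacna1s included, with a median of 0.25, and 4 rose. Over all genes 51.2% lay below 0. Cacna1g had 109.8, 156.3, 148.3 and 133.0 CPM in tMCAO_CON and 223.7 and 258.0 CPM in tMCAO_DE (0.82 ± 0.14, edgeR adjusted p = 0.00371). Cacna1c had 104.4, 101.2, 99.6 and 124.0 CPM in tMCAO_CON and 156.1 and 168.6 CPM in tMCAO_DE (0.60 ± 0.10, edgeR adjusted p = 0.00316). In both genes the depleted libraries lay above all tMCAO_CON libraries. Cacna1h, the Cav3.2 T-type pore, rose from 47.1, 57.3, 49.3 and 49.2 CPM to 62.3 and 77.6 CPM (0.46 ± 0.12, edgeR adjusted p = 0.0182), and Cacna1d by 0.20 ± 0.06 (edgeR adjusted p = 0.0467). The call of Cacna1d was lost in 17 of the 20 alternatives. Cacna1i, the third T-type pore, had 155.7 and 160.1 CPM in tMCAO_DE, above all tMCAO_CON libraries, and did not pass (0.24 ± 0.08, edgeR adjusted p = 0.0534). Cacnb1 rose (0.38 ± 0.09, edgeR adjusted p = 0.0124), at 167.4 and 159.0 CPM against 118.8 to 136.5 CPM.

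Kcnip3 had 156.3, 170.3, 174.3 and 159.7 CPM in tMCAO_CON and 296.5 and 286.3 CPM in tMCAO_DE (0.82 ± 0.17, edgeR adjusted p = 0.00825), while Kcnip4 fell (-0.51 ± 0.12, edgeR adjusted p = 0.0147), so that KChIP genes moved both ways. Kcns1, a silent subunit, and Kcnt1, a sodium-activated Slo channel, rose by 0.47 ± 0.14 and 0.40 ± 0.12. Scn11a had 5, 12, 1 and 9 counts in tMCAO_CON and 47 and 51 counts in tMCAO_DE (2.81 ± 0.88, edgeR adjusted p = 0.0419). Kcna10 had 5, 9, 5 and 1 counts against 39 and 55 counts (3.15 ± 0.85, edgeR adjusted p = 0.0226). Kcne2, an auxiliary subunit best known in choroid plexus and heart, had 3, 5, 8 and 9 counts against 37 and 49 counts (2.71 ± 0.73, edgeR adjusted p = 0.0234). In all 3 genes the depleted libraries lay above the controls. Of 6 choroid plexus markers 5 were tested and none was called; their summed CPM was 4.46 to 11.6 in tMCAO_CON and 4.72 to 5.37 in tMCAO_DE, where Otx2 was at 0.

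Kcnk6 had 8.17, 9.02, 9.12 and 9.17 CPM in tMCAO_CON and 4.42 and 4.15 CPM in tMCAO_DE (-1.05 ± 0.19, edgeR adjusted p = 0.00398). Kcnk13 fell from 4.75, 5.52, 5.59 and 4.32 CPM to 3.57 and 3.29 CPM (-0.55 ± 0.18, edgeR adjusted p = 0.0465), a call lost in 13 of the 20 alternatives. Neither gene's groups overlapped, and 8 of 9 microglial markers fell beside them (median -4.18), none being at 0. Kcnj9 fell from 273.2, 270.6, 264.8 and 261.2 CPM to 218.6 and 210.0 CPM (-0.32 ± 0.07, edgeR adjusted p = 0.00751), and Scn2b by -1.08 ± 0.27 (edgeR adjusted p = 0.0169). Kcnd2 (call lost in 13 of 20 alternatives), Kcnh7 (in 12), Kcns3, Kcnj16, Cacng3 and Kcnq1ot1 fell by -0.28 to -0.78 on the log2 scale. Beside them 1 of 7 astrocyte markers fell (Aqp4), none rose, with a median of -0.28 and a summed CPM of 4227 to 5198 in tMCAO_CON and 2608 to 4168 in tMCAO_DE. Of 10 neuronal markers 3 fell (Nefl, Nefm and Stmn2) and 1 rose (Rbfox3), with a median of -0.19 and a summed CPM of 7528 to 8178 and 7020 to 7264. The part of either cell type in these falls was not tested. Kcnmb1, the smooth muscle beta subunit of BK channels, fell from 1.44, 0.96, 1.94 and 1.80 CPM to 0.30 and 0.61 CPM (-1.74 ± 0.47, edgeR adjusted p = 0.0237), beside falls of 3 of 7 mural markers (Rgs5, Acta2 and Tagln), whose part was not tested.

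**Figure D4:**
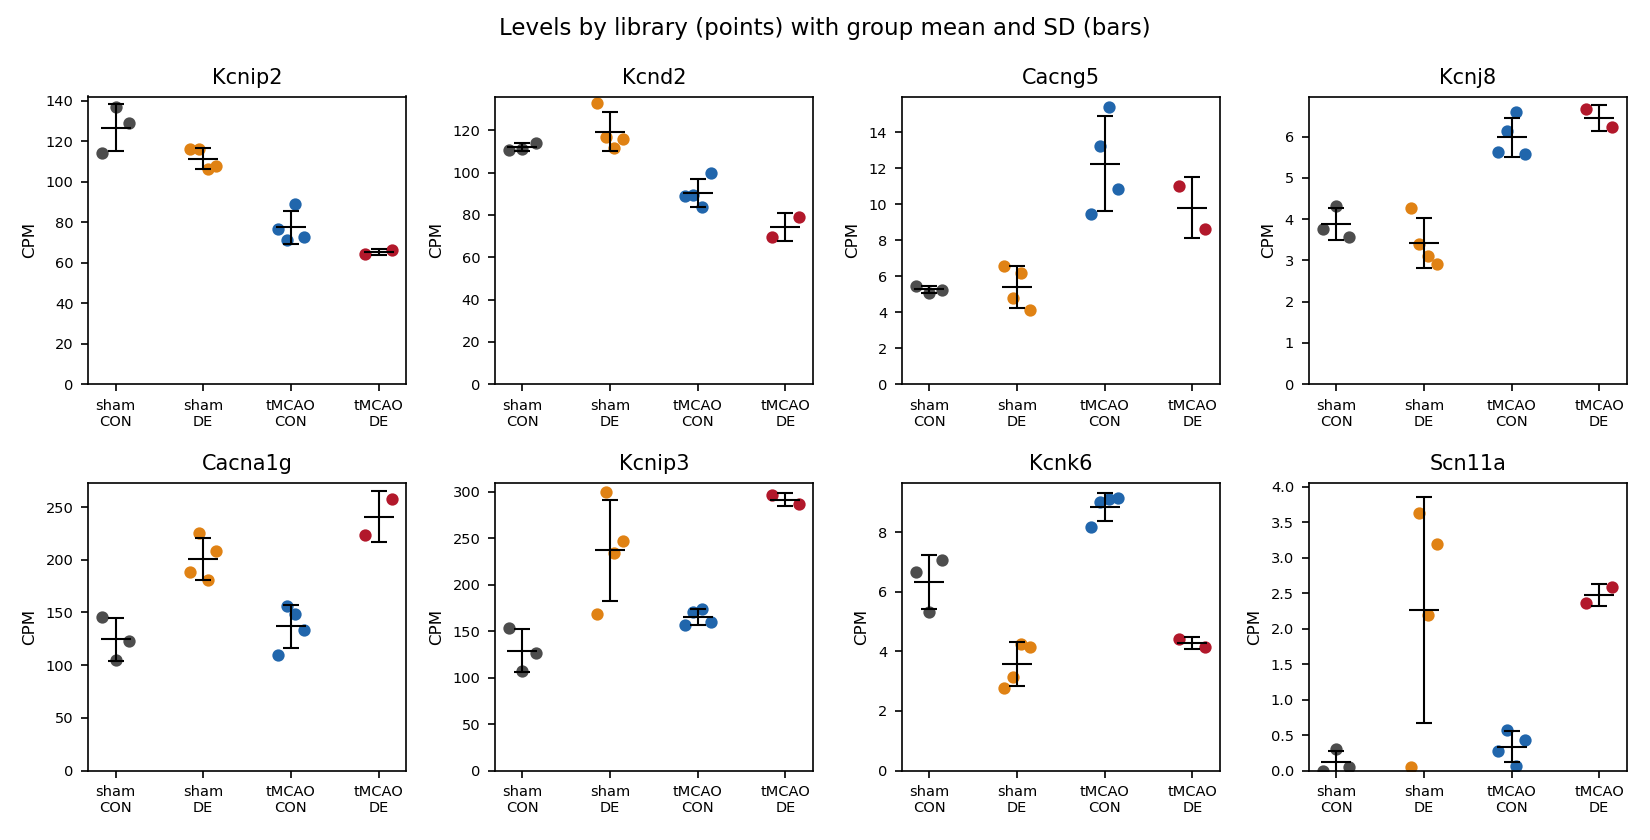
CPM of 8 channel genes in each library (points), with the group mean and SD (bars), by group (3 libraries for sham_CON, 4 each for sham_DE and tMCAO_CON, 2 for tMCAO_DE). Kcnip2 and Kcnd2 are lower and Cacng5 and Kcnj8 higher in both occluded groups; Cacna1g and Kcnip3 are higher and Kcnk6 lower in both depleted groups; and 1 sham_DE library of Scn11a lies at the control level.

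Among 5 markers of striatal projection neurons the summed CPM was 142.9 to 185.3 in tMCAO_CON and 358.9 to 392.5 in tMCAO_DE, against 93.4 to 166.5 in sham_CON and 104.9 to 169.8 in sham_DE. Only Ppp1r1b was called, higher in tMCAO_DE against both sham_DE and tMCAO_CON (1.70 and 1.36 on the log2 scale), and it made up most of the sum. The median over the 5 was below 0 in both comparisons (-0.205 and -0.186), and Drd1, Drd2 and Adora2a had log2 fold changes below 0 without passing. The part of the piece of brain taken in the channel results was not tested. None of the 24 calls held in each alternative, and the refits called other totals: 3 rose and 3 fell without tMCAO_DE replicate 1, 0 and 1 without tMCAO_DE replicate 2, 7 and 9 without tMCAO_CON replicate 3, 10 and 7 without tMCAO_CON replicate 1, and 8 and 9 without tMCAO_CON replicate 4.

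The depletion comparisons also share no library. Called in both were 8 channel genes, 6 higher (Cacna1c, Cacna1d, Cacna1g, Kcna10, Kcnip3, Scn11a) and 2 lower (Kcnk6, Kcnq1ot1). They made up 66.7% of the 12 called in sham brain and 33.3% of the 24 called in occluded brain; over all genes the shares were 53.5% and 32.6%. Of the 20 alternatives, 16 in sham and 17 in occluded brain lost the call of Cacna1d. For Scn11a, 8 and 11 did. No channel gene was called in opposite directions.

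**Figure D5:**
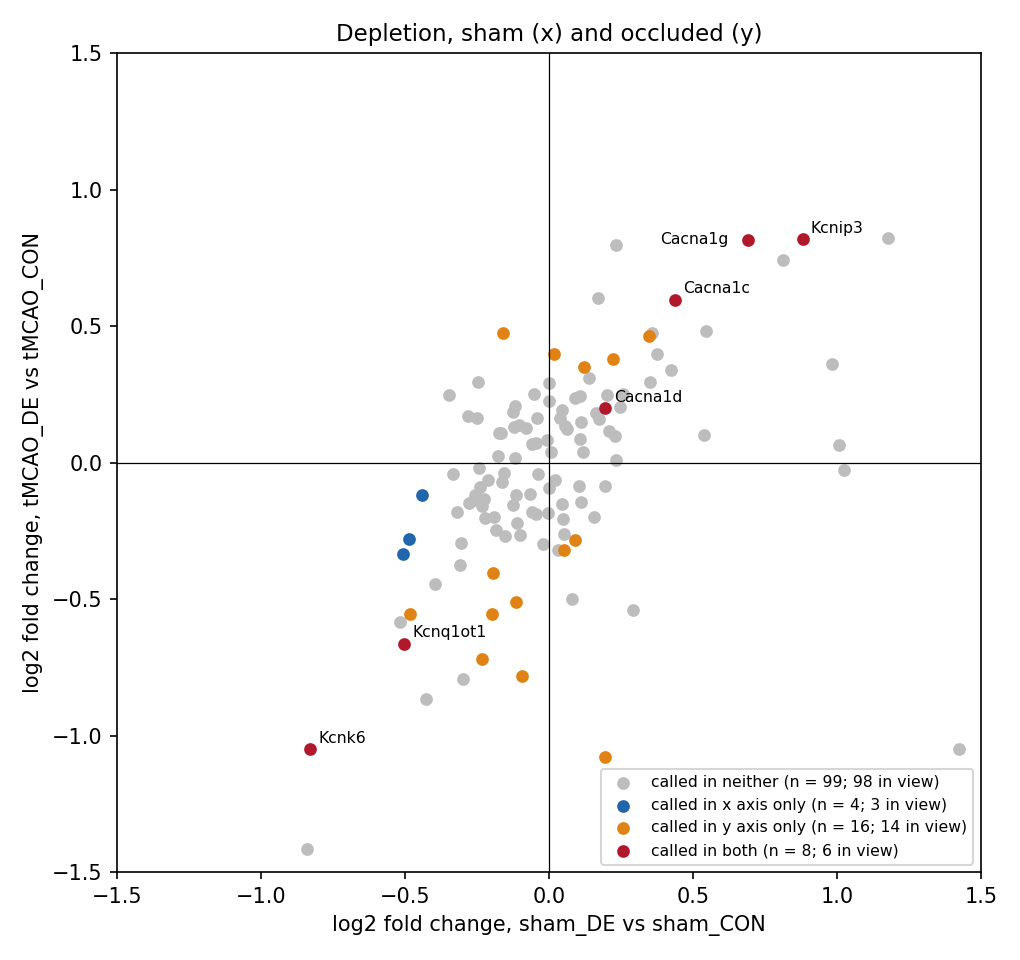
Log2 fold change of depleted over control brain for the 127 tested channel genes, after sham surgery (sham_DE over sham_CON, x axis) and after occlusion (tMCAO_DE over tMCAO_CON, y axis), coloured by the comparison in which a gene was called. Outside the axes lie 6 genes, among them Kcna10 and Scn11a. Kcnip3, Cacna1g and Cacna1c lie in the upper right and Kcnk6 and Kcnq1ot1 in the lower left.

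Partner genes outside the rule were read from a list of which 35 genes were tested; Lrrc26 and Lrrc52 were not analysed here. The medians below stand against all-gene medians of 0.02, 0.00, 0.00 and -0.01 in the order given. Between tMCAO_CON and sham_CON 7 fell and 2 rose (median -0.26; of all genes, 3.31% fell and 5.14% rose), between tMCAO_DE and sham_DE 11 fell and 2 rose (-0.25; of all genes, 5.84% and 6.59%), between sham_DE and sham_CON 2 fell and none rose (-0.09; of all genes, 4.49% and 6.85%), and between tMCAO_DE and tMCAO_CON 9 fell and 2 rose (-0.17; of all genes, 9.26% and 9.36%). The sodium leak channel Nalcn and its subunit Unc80 fell in both comparisons of occluded with sham brain. So did Fgf13, which binds sodium channel tails, and Cntnap1, an axonal adhesion protein. Rims1, a release site scaffold of calcium channels, and Abcc8, the SUR1 subunit of ATP-sensitive channels, fell in both as well. Of the Kv4 partners, Dpp10 fell with occlusion in depleted mice (tMCAO_DE against sham_DE, -0.56 ± 0.11, edgeR adjusted p = 0.00707). Dpp10 also fell between tMCAO_DE and tMCAO_CON, and it was not called between sham_DE and sham_CON. Dpp6 did not pass in either comparison of occluded with sham brain (-0.27 and -0.26, edgeR adjusted p = 0.0548 and 0.0795).

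Rest, a repressor known to silence neuronal genes including channels, rose in both comparisons of occluded with sham brain. With microglia present it went from 4.24 to 5.09 CPM over the sham libraries to 5.97 to 9.27 CPM over the occluded ones (0.66 ± 0.17, edgeR adjusted p = 0.034), and 3.89 to 5.53 CPM in sham_DE and 8.25 to 8.29 CPM in tMCAO_DE (0.80 ± 0.19, edgeR adjusted p = 0.0162). The groups did not overlap in either comparison. The left part of its binding motif (TTCAGCACC, either strand) was found in 1 of 101 channel gene windows, that of Kcnh6 (0.99%), and in 0.285% of all windows, and the CRE motif (TGACGTCA) in 0 of 101 and in 1.62% of all. The window covers 250 bases only.

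By annotation, the exons of 3 channel genes overlap those of another gene on the same strand (Cacng8, Kcnab2 and Kcnk4), and those of 40 overlap a gene on the opposite strand by at least 50 bases, among them the called genes Kcnj9, Cacnb1, Cacnb4, Kcnh7, Kcna6, Cacna1d and Kcnq1ot1. For these the counts may hold reads of both genes.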

How the data were processed

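Total RNA from mouse brain was isolated on silica columns and made into paired-end TruSeq libraries, per the labels' protocols. The authors deposited 1 table per group. The counts are whole numbers per gene and library, not normalised, per the file headers. The FPKM values were deposited by the authors beside the counts, and their mean columns match the library means within 6.7e-06. Cufflinks 2.1.1, Cuffdiff and mm10 are named in the submitters' processing notes; for the aligner, annotation, counting tool and strand setting, this is not given in the sources used here.

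The tables were joined on gene names (22110 rows in the sham and 22160 in the tMCAO tables). Counts of 29 repeated names were summed, 24 blank or date-like names were left out, and 21056 genes in all 4 tables remained. Genes were filtered with filterByExpr, scaled by TMM and tested with edgeR 4.0.16 (R 4.3.3) on group means of all 13 libraries, two-sided, with Benjamini-Hochberg adjustment over 16940 genes. SE was taken as the size of the log2 fold change over the square root of F. Animal identifiers differ between all libraries, which were taken as separate animals; replicate numbers did not pair them (correlation of deviations for equal numbers -0.079 to 0.11). No replicates were found to be the same library. On simulated counts with 200 genes changed, the test was checked before use. Alternatives were DESeq2 1.42.0, upper-quartile scaling, no filter, limma 3.58.1 on log2(FPKM + 1) and log2(FPKM + 0.1), a replicate block and leaving out each library; removal of the pair sham_CON 2 and sham_DE 3 was chosen after seeing the data. Named genes were fixed representatives and, in each comparison, up to 12 called rises and 12 called falls with a mean of at least 1 CPM. Some channel genes are not reported here by name and stay in the counts. Genes, lists and tests were chosen with earlier results of these data known. Promoters are from RefSeq (GRCm38.p6), gene positions and exon overlaps from GENCODE M21.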

Additional observations from a re-analysis of the deposited data

Results flagged for a closer look

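In each of 73 named channel genes, the 2 groups of 4 libraries were checked for a library far from the others (Dixon's criterion, gap over range above 0.829); 7 of these groups had one, where chance gives about 1 in 20. In sham_DE, replicate 4 stood apart in 3 genes: Kcnd3 at 76.5 CPM (others 13.04 to 16.9), Cacna2d1 at 124.4 CPM (others 320.5 to 344.6) and Kcnt2 at 48.4 CPM (others 34.1 to 35.0). Cacna1d was at 107.0 CPM in sham_DE replicate 2 (others 96.0 to 96.8). In tMCAO_CON, Scn3a was at 24.7 CPM in replicate 2 (others 55.1 to 60.9), Kcnk6 at 8.17 CPM in replicate 1 (others 9.02 to 9.17) and Kcnn4 at 0.41 CPM in replicate 3 (others 0.17 to 0.19). The Kcnn4 values rest on 7 counts against 3 to 4, and the gene did not pass the filter on low counts.

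Of the genes listed in the tables of 1 surgery only, which no comparison used, Kcne1 had 6 counts in sham_DE replicate 4 with 0 in all sham_CON libraries, and Kcnmb4os1 had 4 counts in tMCAO_DE replicate 1 with at most 2 in tMCAO_CON.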

How the results depend on the processing

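No call of a named gene changed direction under any alternative. The channel gene median between tMCAO_DE and tMCAO_CON went from 0.016 to -0.007 with upper-quartile scaling (over all genes, -0.012 to -0.035). Without sham_DE replicate 1, falls outnumbered rises between sham_DE and sham_CON (14 and 10). Between sham_DE and sham_CON, the 7 rises became 11 by DESeq2 and 0 without the pair sham_CON 2 and sham_DE 3, and the 5 falls became 1 without that pair; leaving out 1 library gave 3 to 10 rises and 1 to 14 falls. Between tMCAO_CON and sham_CON, the 2 rises became 4 by DESeq2 and 5 by limma with either pseudocount, and the 11 falls became 24 by DESeq2; leaving out 1 library gave 1 to 3 and 4 to 20. Between tMCAO_DE and sham_DE, the 3 rises became 5 by DESeq2 and 6 by limma with either pseudocount; leaving out 1 library gave 0 to 5 and 3 to 22. Between tMCAO_DE and tMCAO_CON, leaving out 1 library gave 0 to 16 rises and 1 to 15 falls. For the interaction DESeq2 called 2 lower, and leaving out 1 library gave 0 in both directions. The cause of these shifts was not tested. The 2 libraries of tMCAO_DE limit the precision of the comparisons that use them.

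Replicate numbers are shared between groups without pairing the animals. With the replicate block, the rises and falls between sham_DE and sham_CON became 3 and 2, and the falls between tMCAO_DE and tMCAO_CON became 7; the other counts stayed within 1.5 times.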

Other observations

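Most channel genes were measured steadily within groups. Of 89 with a mean over 10 CPM, the median of the largest within-group range was 0.48 on the log2 scale, and 7 exceeded 1: Kcnd3 (2.55), Cacna2d1 (1.47), Kcng1 (1.36), Scn3a (1.30), Kcnv1 (1.22), Kcnt2 (1.11) and Scn1a (1.07). Kcnh2, the ERG1 pore, showed little difference between groups: it lay between 40.0 and 50.1 CPM in all 13 libraries, and no comparison was called.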
